A study of Mus musculus with 17 samples.

Results

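The sperm flagellum is built on an axoneme, and 46 genes of this structure and of its accessory parts were followed here in sorted male germ cells of the mouse. The genes were listed by name as components or assembly factors of the sperm tail. Of these, 45 have a row among the 23282 genes of the deposited table, 36 under the same symbol and 9 under an older one (the *Dnah* genes are listed as *Dnahc*), and *Dnah3* was not analysed here. The study sorted testicular cells by FACS, after staining with Hoechst and propidium iodide, and took populations of spermatogonia (SPG), of spermatocytes before leptotene (PreL) and of spermatocytes in leptotene or zygotene (LZ). WT mice were compared with *Nat10*-SKO mice, in which Cre expressed from the *Stra8* locus excises exons 4 and 5 of *Nat10*, the gene of an RNA acetyltransferase, in germ cells. The genotype is given as *Nat10* fl/-;Stra8-Cre in the methods, with the Cre from the Stra8-GFPCre knock-in line, and as Stra8-cre_Nat10_KO in the labels, the background is C57BL/6 (C57BL/6J in the methods), and all groups share that background. The age of the mice used for sequencing and the number of mice behind a library are not given in the sources used here, so the p-values measure only the spread between these libraries. Each genotype had 3 libraries in SPG and 3 in PreL, and in LZ there were 2 from WT and 3 from SKO.

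The axoneme is a cylinder of microtubule doublets around a central pair, bent by dynein arms that slide one doublet along the next, with radial spokes passing signals from the central pair to the dyneins. In sperm it is wrapped by outer dense fibres and a fibrous sheath, which also hold glycolytic and signalling enzymes, and the CatSper calcium channel sits in the membrane of the tail. The tail is assembled in spermatids, after meiosis, and transcripts of many of its parts are made beforehand, in meiotic prophase, by programmes in which RFX2 and MYBL1 are known to act.

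The reads recovered from the deposited values numbered from 5812380 to 13820953 per library, with the SKO LZ libraries the smallest. The reads are per gene and strand is not stated, so reads of a gene and of an overlapping antisense gene cannot be told apart, and 19 members overlap exons of another annotated gene, among them *Dnah8*, *Dnah17*, *Dnali1*, *Spag17*, *Odf2*, *Oaz3*, *Catsper2* and *Tsga10*. *Nat10* had 388 and 391 reads in the WT LZ libraries and 45, 52 and 61 in the SKO LZ libraries, and its reads were lower in every SKO library than in every WT library of the same stage. Markers fixed for the sorted stages were present in all groups: 10 early meiotic genes together made 5006 to 5972 RPM (reads scaled to the same library total) in WT LZ and 3249 to 4932 RPM in SKO LZ. By immunofluorescence, the study counted most cells sorted as PreL or LZ at the intended stage, with some of other stages or kinds. It gave no such count for SPG and did not state the genotype of the cells counted. Markers of other cells were present as well. The protamine and transition protein genes *Prm1*, *Prm2*, *Tnp1* and *Tnp2*, which define spermatids, made 85.6 to 271 RPM in WT SPG, 535 to 893 RPM in WT PreL and 513 to 900 RPM in WT LZ. In the SKO libraries the same genes made at most 1.01 RPM in SPG, 4.53 RPM in PreL and 3.15 RPM in LZ. A list of 12 late spermatocyte genes made 3599 to 6175 RPM in WT LZ and 157 to 168 RPM in SKO LZ. These are bulk samples, in which fewer cells of a type and less RNA per cell cannot be told apart, and these markers move with the results given here. In WT, 40 of the 44 members with an annotated exon length were on in LZ, where on means at least 1 RPKM (RPM per kilobase of annotated exon) in every library of the group. The share of all table genes that were on in WT LZ by the same rule was 46.0%.

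The highest level per kilobase in WT LZ belonged to *Meig1* (chromosome 2, 3409043 to 3422648 of GRCm38), which is required for the manchette of spermatids. It had 18011 and 30269 reads in WT LZ replicates 2 and 3, which is 1183 and 2009.8 RPKM. *Rsph1* (chromosome 17, 31255019 to 31277383), a protein of the radial spoke head, had 11390 and 18382 reads, which is 601 and 980.3 RPKM. Both values of *Meig1* lay above those of every other member. *Ropn1l* (chromosome 15, 31441211 to 31453737), a protein of the radial spokes and fibrous sheath, had 6705 and 13430 reads, which is 507 and 1027 RPKM. The ranges of *Rsph1* and *Ropn1l* overlapped, so their order was not resolved. *Tekt1*, a tektin of the inner wall of the doublets, stood next at 77.2 and 145 RPKM, and *Odf4*, an outer dense fibre gene, at 47.7 and 113 RPKM, again with overlapping ranges. In SKO LZ, *Meig1* held 115, 172 and 146 reads, *Rsph1* 138, 178 and 176, and *Ropn1l* 32, 60 and 39. Those 3 genes, with *Odf2*, *Catsper2* and *Tsga10*, were the 6 members of 44 (13.6%) that were on in SKO LZ, where 39.4% of all table genes were.

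**Figure D1:**
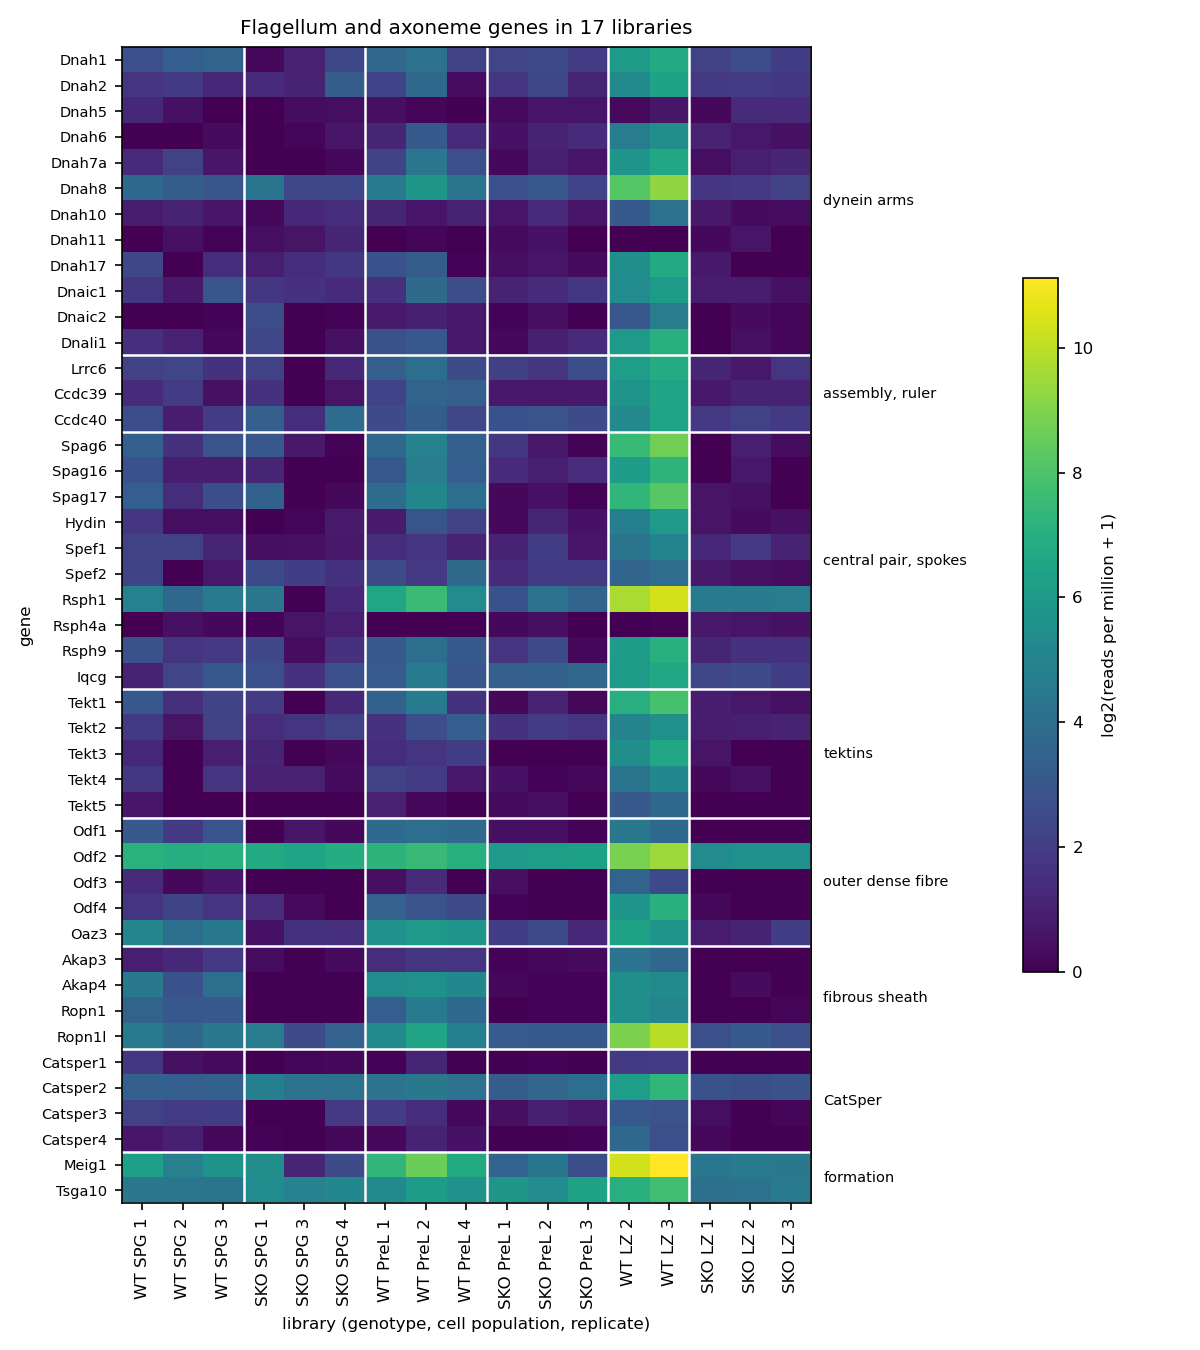
Heatmap of 45 members (rows, grouped by role) in 17 libraries (columns, grouped by genotype and cell population); colour gives log2(RPM + 1). The 2 WT LZ columns are the brightest for most rows, *Odf2*, *Catsper2* and *Tsga10* are seen in every group, and *Dnah5*, *Dnah11* and *Rsph4a* stay dark throughout.

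The members that stayed low in WT LZ were *Dnah5*, *Dnah11* and *Rsph4a*, and *Dnah10* was under the limit in one library (0.486 and 1.06 RPKM). *Dnah5* and *Dnah11* encode outer arm dynein heavy chains of respiratory and nodal cilia, and *Rsph4a* a spoke head protein of such cilia. They had 3 and 8, 0 and 0, and 0 and 1 reads in the WT LZ libraries. For *Dnah11* a count of 0 allows up to 3 reads, and none of these genes had more than 19 reads in any of the 17 libraries. The heavy chains that take the same places in the sperm outer arm were high. *Dnah8*, the sperm counterpart of *Dnah5*, had 4036 and 8411 reads (10.9 and 22.9 RPKM), and *Dnah17*, the counterpart of *Dnah11*, had 624 and 1511 (2.80 and 6.86 RPKM). *Dnah9*, another heavy chain of motile cilia that is no member, had 15 and 8 reads. *Rsph6a*, the spoke head gene of sperm that is related to *Rsph4a*, had 369 and 974 reads in WT LZ and 0 in all SKO LZ libraries. These counterparts were picked after the values were seen. *Foxj1*, the master regulator of motile cilia, had 4 and 16 reads in WT LZ.

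Sequence upstream of these genes was read from RefSeq for 38 members that could be matched (GRCm38.p6, 250 bases before to 50 bases after the annotated start). The letters GTTGCC, one arm of the X-box bound by RFX factors, were searched on both strands and were found in the promoters of 12 of 38 members (31.6%) and of 12.7% of 27025 promoters. The promoters of *Dnah10*, *Dnah7a*, *Dnaic2*, *Hydin*, *Iqcg*, *Odf3*, *Ropn1l*, *Spag16*, *Spef2*, *Tekt1*, *Tekt2* and *Tekt4* held it. Windows of 30 bases are shown for some of these members, a dynein chain, a central pair gene, tektins and *Ropn1l*, with the arm in capitals and read 5′ to 3′ on the strand that carries it.
*Ropn1l*, chr15:31453690-31453719, minus strand: cgcagctcggGTTGCCtggagaccgcacgc
*Tekt1*, chr11:72361878-72361907, minus strand: cgtccgtccgGTTGCCatagagaccgcagt
*Tekt2*, chr4:126325695-126325724, plus strand: tgcggctctgGTTGCCgagcaaccgccccc
*Hydin*, chr8:110266950-110266979, minus strand: gttaccatctGTTGCCacagcaaccgcaga
*Dnaic2*, chr11:114727379-114727408, minus strand: gagtttaccaGTTGCCtagcaaccctggcc
*Spag16*, chr1:69826857-69826886, plus strand: taggcaacgcGTTGCCgtagtaactgcgga
The first base of the arm lies 20 bases before the RefSeq start of *Ropn1l*, 15 before that of *Tekt1* and 22 before that of *Tekt2*. It lies 13 before that of *Hydin*, 26 before that of *Dnaic2* and 103 before that of *Spag16*. All are counted on the strand of the gene. The span given above for *Ropn1l* is from GENCODE and has another start, so the *Ropn1l* window lies inside it. GNCAGTT, the core of the MYB site, was found in 21.1% of member promoters and 12.9% of all promoters, and TGACGTNA, the cAMP response element, in 2.63% and 3.08%. *Meig1* held none of these letters in its window. A match is only a match of letters, and the shares were not tested. Among factors that may read such sites, *Rfx2* had 1505 and 2521 reads in WT LZ and 101 to 197 in WT PreL, which is 3.21 on the log2 scale (limma, standard error 0.38, adjusted p = 0.00251). In SKO LZ it had 24, 25 and 26 reads, below both WT LZ libraries (log2 fold change -4.82, standard error 0.38, adjusted p = 7.5e-05). *Rfx4* was called in the same directions in both comparisons, while *Rfx1* and *Rfx3* were called in neither. Of a list of 13 such regulators, 10 were tested between the genotypes in LZ, with 4 called lower and 1 higher in SKO. *Mcidas* had 14 and 15 reads in WT LZ and 68, 49 and 55 in SKO LZ. *Crem* had 1696 and 2577 reads in WT LZ and 124, 171 and 181 in SKO LZ, and *Tcfl5* had 1599 and 2413 and 127, 219 and 142. *Mybl1*, which encodes a regulator of pachytene genes, had 149 and 218 reads in WT LZ and 32, 48 and 40 in SKO LZ and, after rescaling, was not called between them (log2 fold change -0.77, adjusted p = 0.121).

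The comparison of LZ with PreL in WT asked which members came up as the cells entered meiotic prophase. For this and the other comparisons, the deposited values were rescaled over the libraries compared and log2(value + 10) was tested by limma across all genes whose mean reached 10 reads. A gene was called where the adjusted p lay under 0.05 and the change exceeded 1 on the log2 scale in either direction. Of the 42 members tested, 36 were called higher in LZ, where 18.8% of all genes tested were called higher. For 5 of the 42 the WT PreL mean was under 10 reads (*Catsper1*, *Catsper4*, *Dnaic2*, *Odf3* and *Tekt5*). These passed the filter through WT LZ alone and could only be higher, and all but *Catsper1* are among those called. The median log2 fold change was 3.04 for the members and 0.13 for all genes tested. The tektins rose together: all 5 were called, from 2.76 to 4.46 on the log2 scale. *Tekt3* had 19, 24 and 34 reads in the WT PreL libraries and 636 and 1331 in WT LZ, a difference of 4.46 on the log2 scale (standard error 0.51, adjusted p = 0.00251). *Dnali1*, a light chain of inner arm dyneins, had 62, 74 and 7 reads in PreL and 846 and 1676 in LZ (log2 fold change 4.44, standard error 0.78, adjusted p = 0.00398). *Dnah17* had 63, 93 and 1 reads in PreL and 624 and 1511 in LZ (log2 fold change 4.41, standard error 1.09, adjusted p = 0.0147). For each of these genes both LZ libraries lay far above all PreL libraries.

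All 10 dynein genes tested were called higher in WT LZ, from 3.02 to 4.44. The 3 assembly and ruler genes tested were called as well, at 3.02 to 3.09: *Lrrc6*, a factor for the assembly of dynein arms in the cytoplasm, and *Ccdc39* and *Ccdc40*, which together set the repeat of arms along the doublet. Of 9 genes tested in the central pair and radial spoke group, in which *Iqcg* was placed here, 8 were called. The exception, *Spef2*, had 52, 27 and 145 reads in PreL and 158 and 201 in LZ (standard error of the log2 fold change 0.65, adjusted p = 0.255). Of the CatSper genes, *Catsper2* and *Catsper4* were called, and *Catsper1* and *Catsper3* were not (adjusted p = 0.0603 and 0.0565).

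The outer dense fibre and fibrous sheath genes were divided, with *Oaz3* placed in the outer dense fibre group here. *Odf2*, *Odf3* and *Odf4* were called higher in WT LZ, and so were *Akap3*, *Ropn1* and *Ropn1l*. *Akap4*, the main protein of the fibrous sheath, had 456, 488 and 384 reads in WT PreL and 636 and 533 in WT LZ (log2 fold change -0.12, standard error 0.24, adjusted p = 0.714). *Odf1*, a major protein of the outer dense fibres, had 137, 163 and 137 reads in PreL and 288 and 179 in LZ (log2 fold change 0.12, standard error 0.33, adjusted p = 0.803). *Oaz3*, an antizyme of germ cells whose product is also found at the tail, had 552, 646 and 571 reads in PreL and 1146 and 741 in LZ (log2 fold change 0.12, standard error 0.23, adjusted p = 0.700). The groups overlapped for all of them on the rescaled values.

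This comparison rests on 2 WT LZ libraries. Without WT LZ replicate 3 the count of members called higher was 14, and without replicate 2 it was 30, each with a lone WT LZ library assumed to vary like the others. In the calibrated values without rescaling, the median of all genes shifted by 1.73 on the log2 scale, all 42 members tested were called higher and 10992 of 13759 genes were. The other lists of the same structures were chosen by name, but with earlier results of these data known. Of further axoneme parts, 60 of 71 genes tested were called higher, and of further accessory parts 19 of 36. The medians were 2.99 and 1.21. Genes of these lists that passed the filter through WT LZ alone were not counted apart, so the counts are no independent check. Markers of other cells were higher in WT LZ too. Of the late spermatocyte genes, 9 of 11 tested were called higher (median 2.39), and of the Sertoli cell genes 6 of 6 (median 2.52), whose summed level was 32.4 to 36.8 RPM in WT PreL and 100 and 395 RPM in WT LZ. Their part in the result was not tested.

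Between SPG and PreL in WT, 8 of 37 members tested were called higher in PreL, against 2.54% of all genes. *Spag16*, a central pair protein, had 78, 10 and 10 reads in the SPG libraries and 78, 257 and 97 in PreL (log2 fold change 2.35, standard error 0.62, adjusted p = 0.0437). *Rsph1* had 372, 146 and 280 reads in SPG and 969, 2031 and 436 in PreL (2.13, standard error 0.44, adjusted p = 0.0200). *Meig1* had 1002, 321 and 616 in SPG and 1702, 4105 and 1128 in PreL (1.98, standard error 0.42, adjusted p = 0.0209). The others were *Spag17*, *Akap4*, *Dnah8*, *Tsga10* and *Oaz3*, from 1.32 to 1.96. On the rescaled values all PreL libraries lay above all SPG libraries for each of the 8. The count was 0 without WT SPG replicate 3, 2 without WT PreL replicate 2, 3 without WT SPG replicate 2 and 16 with DESeq2. WT PreL is the reference group of 2 comparisons here and the raised group of this one, so they are not independent. The 4 spermatid genes were also called higher in PreL than in SPG in WT, all 4 of 4, from 1.81 to 2.46.

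**Figure D2:**
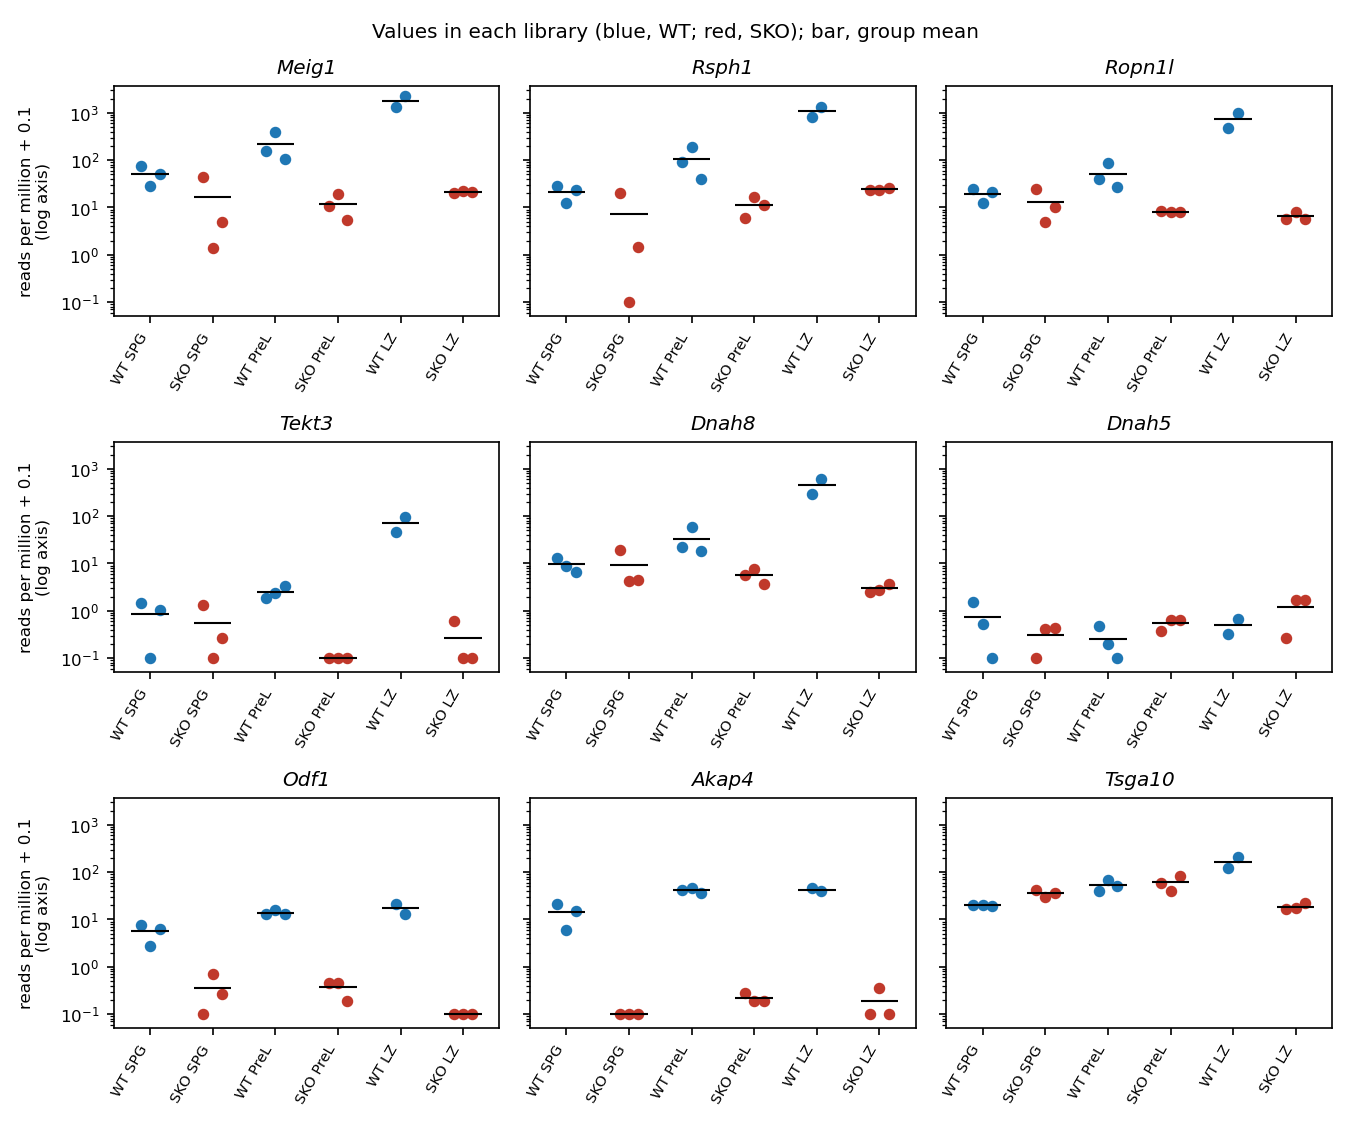
RPM + 0.1 (log axis) of 9 members in each of 17 libraries; points are libraries, blue for WT and red for SKO, and bars are group means. *Meig1*, *Rsph1*, *Ropn1l*, *Tekt3* and *Dnah8* rise to WT LZ, *Odf1* and *Akap4* are level between WT PreL and WT LZ, *Dnah5* stays near the floor, and *Tsga10* overlaps between the genotypes in PreL.

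Whether a member moved with spermatid RNA was described by dividing its reads by the summed reads of *Prm1*, *Prm2*, *Tnp1* and *Tnp2* in the same library, and taking the ratio of the mean in WT LZ to the mean in WT PreL. A transcript that came only with the spermatid transcripts would keep a ratio near 1. The 4 core genes themselves gave 0.740 to 1.23, and the 12 genes of the spermatid list reached 4.86 (*Acrv1*, an acrosomal gene). The ratio was 1.62 to 59.3 for the late spermatocyte genes, with a median of 6.29. It was 0.702 to 12.3 for the early meiotic genes, with a median of 1.76. For the spermatogonia list it was 0.306 to 7.43, with a median of 1.10, so both of these lists also reached above 4.86. For the 44 members with a ratio the median was 11.6, and 35 of them lay above the highest spermatid gene. The share of all table genes above that gene was not computed. The summed core genes had means of 742 RPM in WT PreL and 707 RPM in WT LZ. The ratio therefore mostly follows a gene's own change from PreL to LZ and is not a separate measure of it. Reads of the same libraries enter all these ratios, and no test was made.

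The members with the highest ratios were *Tekt3* (33.8), *Tekt5* (31.9), *Dnali1* (28.2), *Dnaic2* (26.4) and *Spag6* (23.7), genes of the axoneme core. *Tekt3* went from 0.222 to 0.593 reads per 100 core spermatid reads in WT PreL to 5.11 and 19.0 in WT LZ. *Dnaic2*, an intermediate chain of outer arm dyneins, had 98 and 341 reads in WT LZ and 8, 10 and 7 in WT PreL. *Tekt5* had 105 and 164 reads in WT LZ and 11, 2 and 0 in WT PreL, so its ratio rests on few PreL reads. *Meig1*, *Rsph1* and *Ropn1l* had ratios of 10.4, 13.1 and 18.4.

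At the other end, *Akap4* (1.11), *Oaz3* (1.28) and *Odf1* (1.28) kept about the ratio of the protamine genes. *Akap4* stood at 5.17 to 6.70 reads per 100 core reads in WT PreL and 5.11 and 7.60 in WT LZ, and *Odf1* at 1.60 to 2.39 and 2.32 and 2.55, so the groups overlapped for both genes. *Spef2* (1.81), *Ropn1* (2.75), *Dnah5* (3.62), *Tsga10* (3.64) and *Odf2* (4.57) also lay within the range of the spermatid list, and *Dnah11*, with 0 reads in WT LZ, had a ratio of 0. *Tsga10* and *Odf2* were on in every group of both genotypes, also in SKO libraries that hold almost no spermatid reads. *Tsga10*, which encodes a protein of the centriole and the tail, had 450, 290 and 423 reads in SKO SPG and 267, 229 and 227 in WT SPG. *Odf2*, whose protein is also part of centrioles in other cells, had 706, 831 and 880 reads in SKO PreL. *Spef2* was read in these SKO libraries too, with 51, 31 and 25 reads in SKO SPG against 50, 0 and 8 in WT SPG, and 17, 30 and 30 in SKO PreL. The count of 35 was 30 without WT LZ replicate 3 and 31 without WT PreL replicate 2.

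The WT LZ libraries differed in the same respect. Replicate 3 held less spermatid RNA than replicate 2: its RPM of the 4 core genes was 0.524 to 0.597 times that of replicate 2, while the late spermatocyte genes were at 1.15 to 3.82 times. The spermatogonia list was lower in replicate 3 as well, at 0.188 to 1.11 times with a median of 0.423, so the libraries differ in more than spermatid RNA. Among 41 members with at least 50 reads in each of them, 33 were higher and 8 lower in replicate 3. The 8 were *Odf3* (0.446), *Catsper4* (0.466), *Odf1* (0.629), *Oaz3* (0.654), *Akap3* (0.713), *Ropn1* (0.728), *Catsper3* (0.815) and *Akap4* (0.848). *Odf3*, *Catsper4*, *Akap3* and *Catsper3* are on this side although their ratio of LZ to PreL lay above the spermatid list. They had few reads in PreL, for example 4, 16 and 0 for *Odf3* and 2, 12 and 5 for *Catsper4*. The early meiotic genes, at 1.01 to 1.54 times, were also higher in replicate 3. The share of all genes higher in replicate 3 was not computed. The 33 of 41 is therefore not shown to be particular to the members. This look at single replicates was added after the values were seen.

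The comparison of SKO with WT in LZ asked which members differed between the genotypes at the last stage sorted. All 42 members tested were called lower in SKO, against 25.8% of all genes tested, and the SKO libraries lay below both WT libraries for 42 members, against 39.8% of all genes. None was called higher by limma, where 13.4% of all genes were, none was higher at an unadjusted p under 0.05, and edgeR and DESeq2 called none. For 28 of the 42 the SKO mean was under 10 reads. Such genes passed the filter through WT alone and had to differ, so the count lends no support of its own. The median log2 fold change was -5.52 for the members and -0.13 for all genes. With the 5 members at 0 in every SKO LZ library set at their bound, the median was -5.15.

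With 10 added to each value, the most negative fold change was that of *Spag6*, a central pair gene, with 2460 and 5904 reads in the WT libraries and 0, 7 and 2 in the SKO libraries (log2 fold change -8.98, standard error 0.81, adjusted p = 0.000115). The symbol is used for 2 near-identical mouse genes, *Spag6* and *Spag6l*, so its position is uncertain. *Spag17*, a protein of the same structure, had 2214 and 4109 reads in WT and 3, 3 and 0 in SKO (-8.73, standard error 0.71, adjusted p = 8.08e-05). *Odf4* had 768 and 1803 reads in WT and 1, 0 and 0 in SKO (-8.28, standard error 0.63, adjusted p = 6.56e-05). The fitted values of such genes depend on the added 10 and so does their order. Over the alternative settings *Odf4* reached -10.75, *Spag16* -10.46 and *Spag6* -10.36. *Odf1* (288 and 179 reads in WT), *Akap3* (244 and 172), *Tekt5* (105 and 164), *Odf3* (145 and 64) and *Catsper1* (37 and 40) had 0 reads in every SKO LZ library. Against 3 reads per library they were at least 28.2-fold, 25.3-fold, 17.4-fold, 12.3-fold and 4.84-fold lower, taking the mean over WT.

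By role, the log2 fold changes in LZ had medians of -5.40 for the dyneins, -5.54 for assembly and ruler genes, -5.23 for central pair and spokes, -5.97 for the tektins, -5.08 for outer dense fibre genes, -6.78 for the fibrous sheath and -3.98 for CatSper. The smallest decreases were those of *Tsga10*, with 1709 and 2827 reads in WT and 94, 131 and 153 in SKO (-2.74, standard error 0.34, adjusted p = 0.000481), and of *Odf2*, with 6398 and 9695 in WT and 231, 354 and 328 in SKO (-3.31, standard error 0.28, adjusted p = 9.73e-05). *Spef1*, a microtubule bundling protein, followed at -3.38. Even for these the WT and SKO libraries were well apart. *Dnah7a*, which has near-identical copies in the mouse (*Dnah7b* and *Dnah7c*), had 755 and 1316 reads in WT LZ and 2, 7 and 9 in SKO LZ, and *Dnah7b* had 1163 and 1754 and 17, 17 and 26. Only uniquely mapped reads were counted, so reads shared by the copies are missing.

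Among the further genes of the axoneme, 65 of 71 tested were called lower and 1 higher in SKO LZ, with a median of -4.58. Among those of accessory parts 30 of 35 were lower and 1 higher, with a median of -4.11. In SKO LZ, 6 of the 73 rows of the first list and 8 of the 38 of the second had 0 reads in every library. Genes near the floor in SKO could pass the filter through WT alone and had to be lower. These counts therefore lend no support of their own. The largest decreases included *Zmynd10*, a dynein assembly factor whose WT libraries reached 3497 reads and whose SKO libraries reached 3 (-9.08), *Qrich2*, a flagellar protein gene with up to 2382 reads in WT and 0 in SKO (at least 224-fold lower), and *Rimbp3*, a manchette protein gene with up to 2272 reads in WT and 0 in SKO (at least 212-fold lower). The genes called higher were *Nme7* (log2 fold change 2.16) and *Kif3a* (1.90), which are also used in cilia of many cells. The late spermatocyte list was lower too, with 10 of 11 genes tested called lower and a median of -4.72. The spermatid list had 12 of 12 called lower and a median of -6.29. Of these 12 genes, 4 had 0 reads in every SKO LZ library, and the same limit holds. The early meiotic list had 2 of 10 called lower and a median of -0.30. Leydig cell markers made 20.9 and 57.3 RPM in WT LZ and 79.1 to 230 RPM in SKO LZ, with 5 of 7 called higher, and Sertoli cell markers 100 and 395 RPM in WT and 298 to 366 RPM in SKO, with 1 of 6 tested called higher. The part of any of these markers in the members' result was not tested. Summed over the 45 rows, the members made 5195 and 9141 RPM in WT LZ and 141 to 160 RPM in SKO LZ. Divided by the late spermatocyte reads of the same library, they made 1.44 and 1.48 reads per read in WT LZ, 1.21 to 1.44 in WT PreL, 1.18 to 1.56 in WT SPG, 0.840 to 1.02 in SKO LZ, 1.44 to 1.61 in SKO PreL and 1.27 to 2.11 in SKO SPG. The divisor is not made of the same genes in each group. *Ldhc* alone had 29510 and 54176 reads in WT LZ and 22, 57 and 39 in SKO LZ, where *Hspa2* of the same list reached 719. Similar ratios therefore do not show that the members and this list fell together.

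**Figure D3:**
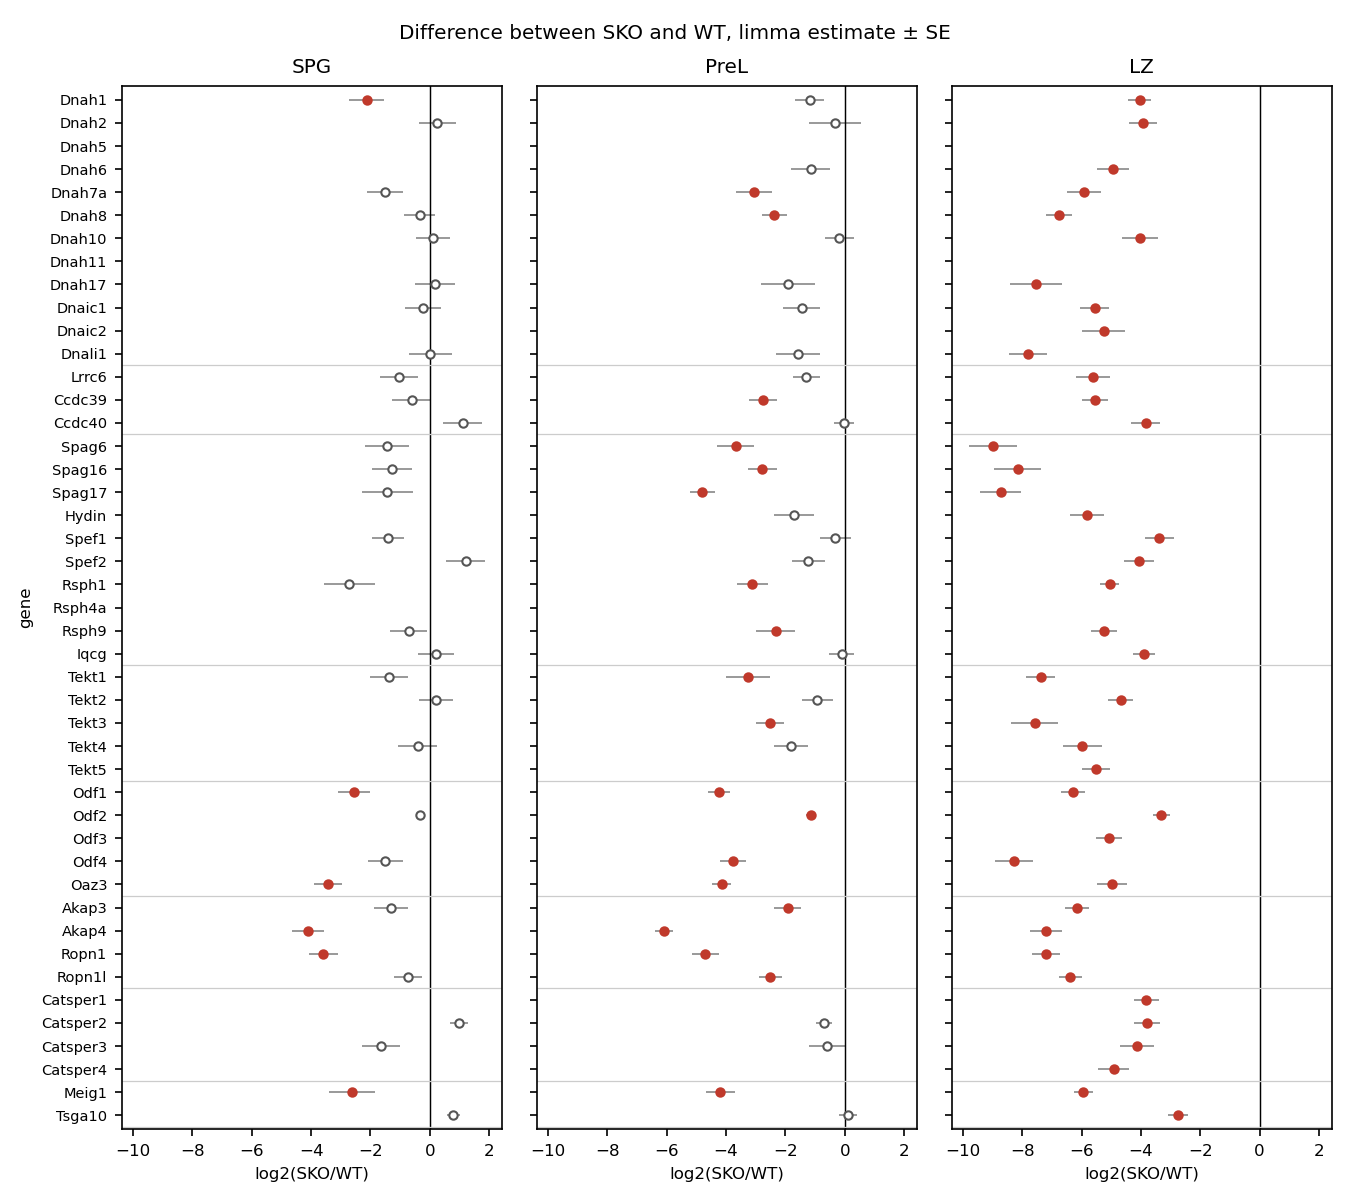
Log2(SKO/WT) of each member with its standard error from limma in SPG, PreL and LZ, grouped by role; filled red points were called, open points were not, and members without a point were not tested. In LZ all points are filled and to the left, from -2.74 to -8.98, while *Akap4*, *Ropn1* and *Oaz3* lie farthest left in SPG and *Akap4*, *Spag17* and *Ropn1* in PreL.

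In PreL, 19 of 37 members tested were called lower in SKO, against 5.83% of all genes, and 21 had SKO libraries below all WT libraries, against 20.0% of all genes. For 14 of the 37 the SKO mean was under 10 reads, so these passed the filter through WT alone and could only be lower, and the counts lend no support of their own. None was called higher by limma, where 5.32% of all genes were, none was higher at an unadjusted p under 0.05, and edgeR and DESeq2 called none. The largest decrease was that of *Akap4*, with 456, 488 and 384 reads in WT and 2, 1 and 1 in SKO (log2 fold change -6.08, standard error 0.31, adjusted p = 1.07e-05). *Spag17* had 152, 348 and 163 reads in WT and 2, 5 and 1 in SKO (-4.79, standard error 0.43, adjusted p = 0.000181). *Ropn1*, a sperm protein that binds AKAPs, had 95, 253 and 139 reads in WT and 0, 1 and 1 in SKO (-4.70, standard error 0.46, adjusted p = 0.000249). The groups did not overlap for any of these. All 4 fibrous sheath genes and all 4 genes tested of the outer dense fibre group, *Oaz3* included, were called. Of the central pair and spoke group 5 of 9 were called, with 2 of 4 tektins, 2 of 9 dyneins and neither of the CatSper genes tested. *Meig1* had 1702, 4105 and 1128 reads in WT and 117, 214 and 60 in SKO (-4.19, adjusted p = 0.000715), while *Tsga10* had 417, 732 and 553 in WT and 656, 459 and 940 in SKO (0.10, adjusted p = 0.844). When libraries were left out singly, 15 to 21 members were called lower, and *Rsph9* was the member that lost its call most often. The 10 spermatid genes called of 12 tested had a list median of -5.01, and 7 of 10 late spermatocyte genes were called lower (median -1.80). Of 10 early meiotic genes 3 were called higher. Leydig cell markers were higher in these SKO libraries, with 6 of 7 called and a summed level of 40.4 to 459 RPM against 6.25 to 17.7 in WT, and 3 of 6 Sertoli cell genes tested were called higher. Their part in the result was not tested.

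In SPG, 6 of 34 members tested were called lower in SKO, against 2.06% of all genes, and 11 had all SKO values under all WT values, against 14.4% of all genes. For 10 of the 34, *Akap4* and *Ropn1* among them, the SKO mean was under 10 reads, and the same limit holds for these counts. None was called higher by limma, where 3.95% of all genes were. At an unadjusted p under 0.05, 2 members were higher, edgeR called none and DESeq2 called *Catsper2*. *Akap4* had 282, 69 and 182 reads in WT SPG and 0 in every SKO SPG library (log2 fold change -4.11, standard error 0.54, adjusted p = 0.000526), so that its mean in WT was at least 51.0-fold higher. *Ropn1* had 141, 86 and 92 reads in WT and 0 in every SKO library (-3.59, standard error 0.49, adjusted p = 0.000674), with a mean in WT at least 31.2-fold higher. *Oaz3* had 419, 178 and 262 reads in WT and 5, 21 and 23 in SKO (-3.43, standard error 0.46, adjusted p = 0.000577). The others called were *Meig1* (-2.62), *Odf1* (-2.55) and *Dnah1* (-2.13). *Meig1* overlapped between the genotypes, and SKO SPG replicate 1 had 471 reads, against 13 and 57 in replicates 3 and 4.

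The same library held more reads of other members. *Rsph1* had 220 reads in it and 0 and 16 in the other SKO SPG libraries, *Spag17* 107 and 0 and 2, and *Dnah8* 204 and 41 and 52. The late spermatocyte gene *Ldhc* had 749 reads in it and 1 and 57 in the others, whereas *Prm1* had 0 and *Tnp2* had 7. Without it, 8 members were called lower. Without WT SPG replicate 1 or 3 the count was 3, and *Meig1* and *Dnah1* lost their calls under several settings, so that *Akap4*, *Ropn1* and *Oaz3* are the members called in SPG under every setting tried that gave them a value. Macrophage markers made 55.2 to 121 RPM in SKO SPG and 6.82 to 13.6 RPM in WT SPG, Leydig cell markers 62.5 to 225 RPM and 5.61 to 15.5 RPM, and myoid and endothelial markers 36.8 to 70.8 RPM and 0.949 to 4.74 RPM, with 2 of 5 of the last list called higher. Of 10 late spermatocyte genes tested, 3 were called lower. The 4 spermatid genes were called lower in SKO SPG as well, from -4.68 to -6.27. The part of any of these markers in the result was not tested.

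Within SKO, 18 members had enough reads to be compared between PreL and LZ, and 2 were called lower and 2 higher in LZ, against 6.93% and 10.6% of all genes. *Rsph1* had 66, 188 and 126 reads in SKO PreL and 138, 178 and 176 in SKO LZ, from smaller libraries (log2 fold change 1.61, standard error 0.32, adjusted p = 0.00493). *Meig1* had 117, 214 and 60 in PreL and 115, 172 and 146 in LZ (1.44, standard error 0.33, adjusted p = 0.00944). *Tsga10* had 656, 459 and 940 in PreL and 94, 131 and 153 in LZ (-1.24, standard error 0.30, adjusted p = 0.0114), and *Spef2* had 17, 30 and 30 and 4, 3 and 2 (-1.50, standard error 0.48, adjusted p = 0.0362). *Tekt3*, with 0 reads in every SKO PreL library and 3, 0 and 0 in SKO LZ, was among the 27 members too low to test. In the calibrated values without rescaling, where the median of all genes shifted by 0.82, none was called lower and *Dnah1*, *Dnah2*, *Meig1* and *Rsph1* were called higher. Without SKO PreL replicate 3 none was called lower.

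A difference of the genotype effect between the stages was tested in limma by an interaction term over all 17 libraries, at an adjusted p under 0.05. Of 41 members tested, 33 had an effect more negative in LZ than in PreL, against 23.1% of all genes tested. *Tekt5*, *Odf3*, *Catsper4* and *Dnaic2* are among them, although they were too low in PreL to be tested there and passed the filter through WT LZ. *Tekt5*, for example, had 11, 2 and 0 reads in WT PreL and 3, 4 and 0 in SKO PreL. A member near the floor in PreL can show little effect there, so the count lends no support of its own. The largest differences were those of *Dnali1* (-5.44, standard error 1.22, adjusted p = 0.00185), *Dnah17* (-4.78, standard error 1.34, adjusted p = 0.00888) and *Spag6* (-4.62, standard error 1.24, adjusted p = 0.00685). The members whose difference did not pass were *Akap4* (-0.08), *Oaz3* (-0.63), *Odf1* (-0.87), *Ropn1* (-1.41), *Meig1* (-1.71), *Rsph1* (-1.91), *Spef2* (-2.45) and *Spag17* (-3.20). *Akap4*, *Oaz3*, *Odf1*, *Ropn1* and *Spef2* are also the members with the lowest ratios to spermatid reads among those on in WT LZ. Both measures contain the change from PreL to LZ in the same WT libraries, so this overlap is not a separate observation. The effect of *Akap4* was -6.23 in PreL and -6.31 in LZ in this fit (adjusted p = 0.932 for the difference). The count was 19 without WT LZ replicate 3, 18 with a pseudocount of 1 and 18 with edgeR.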

How the data were processed

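Sorted cells were sequenced as paired-end Smart-seq2 libraries (oligo(dT)-primed) with ERCC spike-in. Per the methods, the authors mapped trimmed reads to mm10, quantified uniquely mapped reads with HTSeq 0.11.2 and Cufflinks 2.2.1, normalised to ERCC and calibrated to cell input. The deposited signal values are these calibrated counts. The submitters' processing notes also name TopHat2 2.1.1, DESeq2 and the builds mm9 and mm10. Strand and annotation are not given in the sources used here. In every library the values were whole multiples of 1 step (100%, tolerance 0.01), taken as 1 read, with steps of 1 to 10.4.

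Size factors (median of ratios) were applied within each set of libraries compared, genes under a mean of 10 reads were dropped, and log2(value + 10) was tested with limma 3.58.1 (trend, Benjamini-Hochberg over all genes) in R 4.3.3. Fold changes on this scale understate low genes. Alternatives were the calibrated values as deposited, TMM, other pseudocounts and filters, edgeR 4.0.16 and DESeq2 1.42.0 on recovered reads, a joint fit of the 17 libraries, a block for replicate number, a call without the fold limit, and leaving out each library. The tests were tried on simulated data. Exon lengths and positions came from GENCODE for GRCm38 (22756 of 23282 symbols matched). PCR reads are not independent molecules, and floors of 3 reads cover counting error only.

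Every member could be named. Given with all libraries were the 3 called members with the largest change in each comparison and direction, any called higher in SKO, the 5 highest in WT LZ, the 5 highest and 5 lowest by spermatid ratio, and those with near-identical copies. The members and lists were chosen with earlier results of these data known. No pair of replicates agreed within counting noise.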

Additional observations from a re-analysis of the deposited data

Results flagged for a closer look

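For 33 of 41 members the effect of the genotype was not the same in PreL and in LZ, by the interaction term of limma at an adjusted p under 0.05. In each case the log2 fold change of SKO against WT was more negative in LZ. Members near the floor in PreL, such as *Tekt5*, *Odf3*, *Catsper4* and *Dnaic2*, could show little effect there. The differences of the log2 fold changes, LZ minus PreL, were *Dnali1* (-5.44), *Dnah17* (-4.78), *Spag6* (-4.62), *Spag16* (-4.49), *Dnah8* (-4.27), *Tekt5* (-4.22), *Tekt3* (-4.11), *Lrrc6* (-4.09), *Ropn1l* (-3.80), *Dnaic1* (-3.78), *Iqcg* (-3.72), *Tekt1* (-3.71), *Ccdc40* (-3.70), *Hydin* (-3.64), *Tekt2* (-3.53), *Dnah2* (-3.52), *Dnah6* (-3.47), *Odf4* (-3.45), *Dnah10* (-3.44), *Dnaic2* (-3.41), *Tekt4* (-3.40), *Odf3* (-3.32), *Akap3* (-3.06), *Catsper2* (-3.05), *Catsper4* (-3.01), *Spef1* (-2.90), *Catsper3* (-2.86), *Tsga10* (-2.81), *Dnah1* (-2.78), *Rsph9* (-2.71), *Dnah7a* (-2.50), *Ccdc39* (-2.50) and *Odf2* (-2.15). No group holds 4 or more libraries, so the test for a single library far from the rest of its group was not applied. SKO SPG replicate 1, with 471 reads of *Meig1* against 13 and 57 in the other SKO SPG libraries, is described with SPG from its values alone.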

How the results depend on the processing

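No call of a member changed direction. Over 2475 checks of 148 called values under the alternatives, 2260 kept their call and 215 lost it. In LZ, all 666 checks of SKO against WT kept their call. For 28 of the 42 members called there the SKO mean was under 10 reads, so those calls could hardly be lost. The setting without the fold limit cannot lose a call, and its checks are counted in these tallies. The tallies are therefore no measure of support. The following counts moved by more than 1.5 times, and the cause was not tested except where fewer libraries were fitted. Members called lower in SKO SPG (6) were 12 with 1 fit of all 17 libraries and 3 to 8 with 1 library left out. Members called higher in SKO SPG (0) were 1 with DESeq2 and with 1 fit of all libraries (*Catsper2*), and 1 without the fold threshold (*Tsga10*, log2 fold change 0.80). In SKO LZ, 1 member (*Rsph4a*, 0 and 1 reads in WT and 4, 4 and 3 in SKO) was called higher without the filter. Members called higher in WT PreL than in WT SPG (8) were 2 without the filter, 16 with DESeq2 and 0 to 9 with 1 library left out. Members called higher in WT LZ than in WT PreL (36) were 14 to 37 with 1 library left out. Within SKO, members called lower in LZ (2) were 0 in the values without rescaling, 1 with a pseudocount of 50, without the filter, with a mean of at least 50 reads, with DESeq2 and with 1 fit of all libraries, and 0 to 2 with 1 library left out. Members called higher there (2) were 4 without rescaling and 0 with 1 fit of all libraries. Members with a more negative effect in LZ (33) were 18 with a pseudocount of 1, 18 with edgeR and 19 to 35 with 1 library left out. Members on in WT LZ (40) were 27 at a threshold of 5 RPKM and 40 to 41 with 1 library left out. The shift of the median of all genes without rescaling was -0.25 in SPG, 0.69 in PreL and -0.12 in LZ for SKO against WT, and -0.81 for the interaction. With 2 WT LZ libraries and SKO LZ libraries of at most 7609420 reads, members at a few reads could not be ranked by fold change.

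The replicate numbers are shared by groups, but same-numbered libraries did not deviate together (12 correlations from -0.188 to 0.131), so they were not taken as pairs. With a replicate block, 8 members were called lower in SPG, 24 in PreL and 42 in LZ, and none was called higher in SKO. The block gave 11 members higher in WT PreL than in WT SPG, 1 lower and 2 higher in SKO LZ than in SKO PreL, and 32 with a more negative effect in LZ. For WT LZ against WT PreL no block could be fitted, since no residual degrees of freedom were left.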
